A study of Mus musculus with 48 samples.

Results

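The effect of a high-fat (HF) diet against a low-fat (LF) diet was measured by RNA-seq in the livers of female mice labelled as hepatocyte-specific knockouts of Pparg. The comparison holds 8 of the 48 libraries of the series, chosen by sample title: 4 of the group F-HF-KO and 4 of the group F-LF-KO. All 8 mice were floxed for Pparg, the gene of the nuclear receptor PPARγ, and all 8 received AAV8-TBG-Cre after 16 weeks on their diet. This adeno-associated vector places Cre recombinase under TBG, a promoter active in hepatocytes. The LF group ate D12450J, which the labels also call a control diet, for 34 weeks and is described as healthy. The HF group ate D12492 for 34 weeks and is described as having liver steatosis. Beside these stand 8 floxed females on the same diets, 4 per diet (F-LF-C and F-HF-C), which received AAV8-TBG-null, the virus without Cre, at the same time. The labels call the mice adult and give no further age. RNA came from whole liver, so cells in which the TBG promoter is silent kept an intact Pparg and contributed to every library. The libraries come from mice with separate animal numbers, and p-values measure the spread between them. The animal number of LF labelled-knockout replicate 2 differs between its sample label and the series text.

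As background, the liver switches between a fed programme, in which insulin promotes glucose uptake and fat synthesis, and a fasted programme of glucose output, fatty acid oxidation and ketone production. Long feeding of a high-fat diet can lead to obesity, raised insulin and leptin, and storage of triglyceride in lipid droplets of hepatocytes. PPARγ is best known as the driver of fat storage in adipocytes and also promotes lipid storage in hepatocytes of fatty livers, whereas its relative PPARα drives much of the hepatic response to fasting.

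The 8 libraries held 15900564 to 21230433 reads on genes. Alb, the gene of albumin, was the top gene in each with 7.22% to 9.07% of reads. In a principal component analysis of log2 CPM, the leading component (26.4% of the variance) did not separate the diets. On the next (24.3%), all 4 LF libraries were negative and all 4 HF libraries positive. HF labelled-knockout replicate 3 stood apart: 16 genes were over 4-fold higher in it than in each of the other 7 libraries (with 0.5 CPM added), against 0 to 2 genes in the others. It carried the neutrophil gene S100a8 at 26.0 CPM against at most 1.47 CPM elsewhere. CPM are counts scaled to a common library size, here with edgeR's TMM factors.

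Pparg (ENSMUSG00000000440, GRCm38 chromosome 6, 115360951 to 115490399, plus strand), the targeted gene, was examined first. It measured 21.4, 13.6, 12.6 and 9.83 CPM in LF labelled knockouts 1 to 4 and 23.9, 27.4, 37.5 and 19.2 CPM in HF labelled knockouts 1 to 4. The groups overlapped only in that LF replicate 1 lay above HF replicate 4. The log2 fold change was 0.90 (SE 0.26), with an edgeR adjusted p of 0.159. Permuting the 8 libraries exactly gave a 2-sided p of 0.0571, where 0.0286 is the smallest that 4 against 4 libraries allow. The DESeq2 Wald test gave an adjusted p of 0.0271. In controls Pparg stood at 9.74 ± 3.003 CPM (SD, n = 4) on LF and 17.5 ± 3.90 CPM (n = 4) on HF, a log2 fold change of 0.84 (exact permutation p 0.0571). The labelled-knockout means, 14.4 ± 4.96 CPM on LF and 27.0 ± 7.79 CPM on HF, were not below these. Pparg overlaps Gm44079. Counts over the whole gene do not separate reads of the deleted exons, and the term labelled knockout is used for that reason.

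On the HF diet 12 genes fell in labelled knockouts, led by the leptin receptor gene Lepr (16.7-fold), Rims4 (12.7-fold), Gadd45g (11.0-fold) and the glucose-6-phosphatase gene G6pc (3.53-fold). Those that rose, by 1.72-fold to 5.53-fold, included Car3, Cyp2f2, Map2k6, the interferon-inducible Gbp10 and 4 transcripts annotated as non-coding, pseudogenes or unconfirmed. Of 14214 genes tested with edgeR's quasi-likelihood test, 22 were called at an adjusted p under 0.05 (0.155%), of which 10 rose (0.0704%) and 12 fell (0.0844%). In all 22 the 4 LF and 4 HF libraries did not overlap, against 5.07% of all genes with every HF library higher and 3.56% with every HF library lower. The 22 were picked by a test on these same libraries, so their separation is not further support. At an unadjusted p under 0.05 stood 1902 genes (13.4%), of which 996 were higher on HF (7.01%) and 906 lower (6.37%). The DESeq2 Wald test called 501 of 14192 genes (3.53%), among them all 22. The authors' deposited table of this comparison holds 450 genes at an adjusted p under 0.05, again with all 22 among them. In whole liver, fewer cells of a type and less RNA per cell cannot be told apart.

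The count of 22 changed with single libraries. Without LF replicate 2, LF replicate 4 or HF replicate 1 it was 0, and without LF replicate 1 it was 124. It was 5, 11 and 12 without HF replicates 2, 3 and 4, and 24 without LF replicate 3. Csad, Ctcflos and Plin5 kept their calls in 5 of these 8 fits, and Gbp10, C730036E19Rik, Serpinb8 and Akr1c19 in 4. Zfpm1, Got1, Apoa5 and Gm8941 kept theirs in 3, Gadd45g, G6pc, Lepr and Rims4 in 2, and the other 7 genes in 1. Over these fits and the other alternatives run, 0 of 438 values for the 22 genes changed sign. These fits reuse the same libraries, and the diet groups of the 22 genes did not overlap. The stable sign therefore says little about how secure the calls are.

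Lepr (ENSMUSG00000057722, chromosome 4, 101717404 to 101815352, plus strand) encodes the receptor of leptin, and in liver also a soluble form that binds leptin in blood. It measured 29.2, 108, 261 and 123 CPM in LF labelled knockouts 1 to 4, and 8.63, 5.84, 3.57 and 13.2 CPM in HF labelled knockouts 1 to 4. The groups did not overlap, although LF replicate 1 was far below the other LF livers. The mean fell from 130.4 ± 96.3 to 7.82 ± 4.16 CPM (SD, n = 4 each), a log2 fold change of -4.08 (SE 0.61, edgeR adjusted p 0.0404).

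Gadd45g (ENSMUSG00000021453, chromosome 13, 51846678 to 51848468, plus strand) encodes a stress-inducible regulator of growth arrest and is known to rise in the fasted liver. Its levels were 16.5, 92.4, 39.8 and 64.9 CPM on LF and 2.81, 4.30, 5.10 and 7.24 CPM on HF, in replicates 1 to 4. Again LF replicate 1 was the lowest of its group and still lay above every HF library. The log2 fold change was -3.48 (SE 0.49, edgeR adjusted p 0.0345).

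G6pc (ENSMUSG00000078650, chromosome 11, 101367561 to 101377903, plus strand) encodes the enzyme that releases free glucose at the end of both gluconeogenesis and glycogen breakdown. Its levels were 263, 405, 419 and 390.3 CPM on LF and 90.8, 63.4, 92.2 and 172 CPM on HF. The lowest LF library, replicate 1, exceeded the highest HF library, replicate 4. The log2 fold change was -1.83 (SE 0.27, edgeR adjusted p 0.0404).

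Among enzymes of amino acid metabolism, Got1 and Csad fell. Got1 (ENSMUSG00000025190, chromosome 19, 43499752 to 43524605, minus strand) encodes the cytosolic aspartate aminotransferase, which links amino acid carbon to gluconeogenesis. It measured 574, 564, 390.0 and 607 CPM on LF and 239.6, 194, 178 and 287 CPM on HF, with all LF libraries above all HF libraries and a log2 fold change of -1.26 (SE 0.18, edgeR adjusted p 0.0355). Csad (ENSMUSG00000023044, chromosome 15, 102176999 to 102204724, minus strand) encodes the decarboxylase that makes the precursor of taurine. Its levels were 116, 167, 119 and 162 CPM on LF and 53.9, 55.1, 56.4 and 63.0 CPM on HF. The HF libraries lay within 10 CPM of each other, and the log2 fold change was -1.32 (SE 0.14, edgeR adjusted p 0.0181). Csad overlaps Zfp740, and since the libraries do not mark strand, reads of the overlap cannot be told apart.

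Plin5, Apoa5 and Acot1, which also fell, are known for roles in lipid metabolism. Plin5 (ENSMUSG00000011305, chromosome 17, 56111601 to 56117596, minus strand) encodes a lipid droplet coat protein of tissues that burn fat. It measured 72.4, 70.4, 65.7 and 61.8 CPM on LF and 32.2, 41.5, 33.5 and 28.3 CPM on HF. The spread within each diet was small beside the gap between them, and the log2 fold change was -1.01 (SE 0.12, edgeR adjusted p 0.0181). Apoa5 (ENSMUSG00000032079, chromosome 9, 46268633 to 46271919, plus strand) encodes an apolipoprotein that promotes clearance of triglyceride from blood. It measured 1487, 1599.5, 1521 and 1661 CPM on LF and 861, 959.8, 727 and 1032 CPM on HF, without overlap, and its log2 fold change was -0.82 (SE 0.12, edgeR adjusted p 0.0383). Acot1, an acyl-CoA thioesterase and a known PPARα target, ran from 65.5 to 137 CPM on LF and from 27.5 to 45.4 CPM on HF (log2 fold change -1.38, SE 0.22, edgeR adjusted p 0.0470). Acot1 has close paralogs with which it can share reads, and Apoa5 overlaps Gm47544. On a scale that corrects for gene length, the authors' deposited FPKM, Apoa5 had the highest mean level of the 12 genes that fell, at 662 FPKM on LF and 375 on HF, and Rims4 the lowest, at 0.630 and 0.0490.

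The other 4 genes that fell have diverse functions. Zfpm1, a cofactor of GATA transcription factors that overlaps Gm20388, ran from 77.9 to 92.8 CPM on LF and from 36.6 to 52.8 CPM on HF (log2 fold change -0.86, SE 0.12, edgeR adjusted p 0.0345). Ctcflos, annotated as an antisense transcript overlapping Ctcfl, ran from 40.9 to 56.8 CPM on LF and from 15.5 to 23.0 CPM on HF, with a log2 fold change of -1.34. Acpp, an acid phosphatase gene, ran from 26.9 to 44.2 CPM on LF and from 11.8 to 18.5 CPM on HF (-1.14). Rims4, of a family that acts in vesicle release, ran from 1.60 to 5.08 CPM on LF and from 0.0659 to 0.430 CPM on HF (-3.63). Its HF level rested on 17 reads over 4 libraries against 205 on LF.

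**Figure D1:**
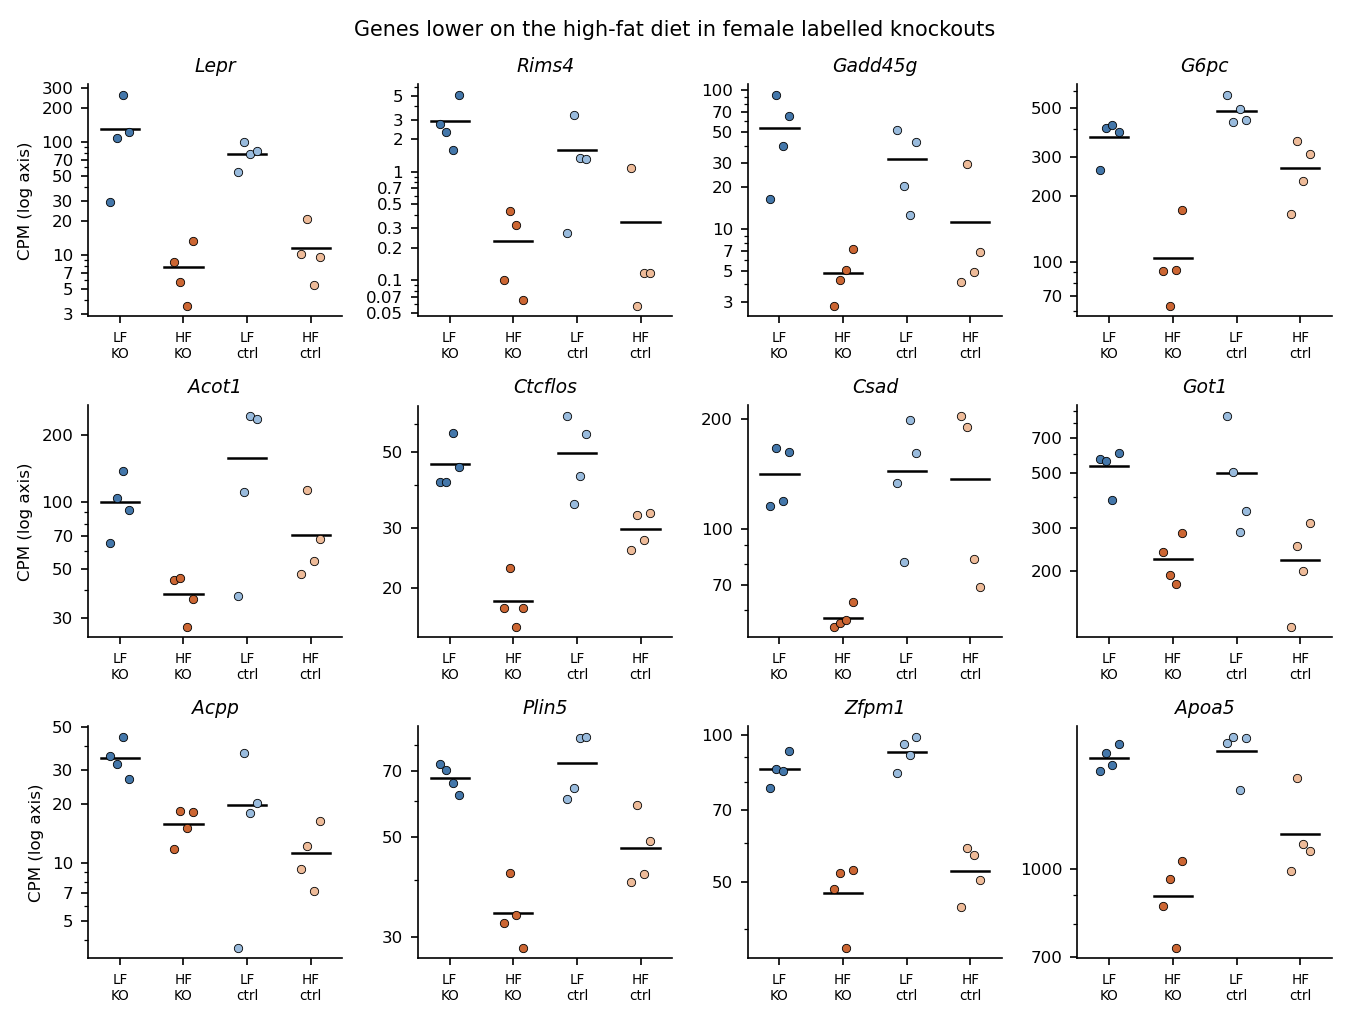
CPM on a log axis of the 12 genes that fell on the high-fat diet, for each of the 4 libraries of LF and HF labelled knockouts (KO) and of LF and HF controls (ctrl); points are libraries and bars are group means. In each panel the 4 HF labelled knockouts lie below the 4 LF labelled knockouts, whereas for Csad 2 of the 4 HF controls, at 204 and 190.5 CPM, lie as high as the LF controls.

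The promoter sequences of 3 of these genes are shown because they are genes of different roles that the results turn on, and because Gadd45g and Apoa5 held matches to an E-box. Each is a window of 300 bases, 250 before and 50 after a start site, on the plus strand of GRCm38.p6 as given by RefSeq, read 5′ to 3′. Capitals mark matches to the motifs searched, on either strand. The windows are chr13:51846425-51846724 for Gadd45g, chr9:46268358-46268657 for Apoa5 and chr11:101367466-101367765 for G6pc.
Gadd45g: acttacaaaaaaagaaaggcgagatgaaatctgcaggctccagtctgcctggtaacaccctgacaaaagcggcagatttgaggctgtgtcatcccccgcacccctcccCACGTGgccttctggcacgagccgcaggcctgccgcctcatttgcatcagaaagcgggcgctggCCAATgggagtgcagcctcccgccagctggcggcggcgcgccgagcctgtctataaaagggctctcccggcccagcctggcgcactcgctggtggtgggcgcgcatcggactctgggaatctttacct
Apoa5: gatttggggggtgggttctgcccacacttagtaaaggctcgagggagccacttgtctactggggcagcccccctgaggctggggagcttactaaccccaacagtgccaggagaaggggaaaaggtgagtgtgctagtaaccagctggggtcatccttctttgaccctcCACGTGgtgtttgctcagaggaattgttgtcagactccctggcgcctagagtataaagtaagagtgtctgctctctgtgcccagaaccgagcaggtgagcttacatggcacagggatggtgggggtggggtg
G6pc: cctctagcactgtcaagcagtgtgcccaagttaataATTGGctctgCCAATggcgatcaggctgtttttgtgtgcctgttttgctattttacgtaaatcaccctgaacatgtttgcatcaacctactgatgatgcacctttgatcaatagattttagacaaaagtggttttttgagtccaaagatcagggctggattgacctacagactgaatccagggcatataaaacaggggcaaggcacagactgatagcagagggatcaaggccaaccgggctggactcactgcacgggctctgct
Windows were found for 17 of the 22 called genes, 23 windows in all. The E-box CACGTG, a motif bound by clock and other bHLH factors, was in 3 of the 23, namely that of Gadd45g at -142 and a pair of overlapping windows of Apoa5 that share a single match, against 7.15% of 32851 windows of all genes. The CCAAT box was in 9 of 23, among them G6pc with 2 matches and Gadd45g with 1, against 37.4% of all windows. The palindromic cyclic AMP response element TGACGTCA, the FOXO motif GTAAACA and the consensus DR1 element of PPAR binding were in 0 of 23, against 1.79%, 3.65% and 0.0396% of all windows. The shorter cyclic AMP motif TGACG was in that of Csad alone (20.8% of all windows), the D-box TTATGTAA in that of Map2k6 alone (0.938%), and the GAS motif TTCNNNGAA in that of Akr1c19 alone (8.30%). These are matches of letters within the windows and say nothing about binding.

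Among the 10 genes that rose, 6 code for proteins. Car3 (ENSMUSG00000027559, chromosome 3, 14863512 to 14872523, plus strand) encodes carbonic anhydrase 3, which is abundant in liver, muscle and fat. It measured 663, 722, 461 and 437 CPM on LF and 1257, 1379, 1617 and 1106 CPM on HF. Every HF library lay above every LF library, and the log2 fold change was 1.22 (SE 0.19, edgeR adjusted p 0.0430). Of the other adipocyte markers, Adipoq was at 0 in all 8 libraries. The remaining tested members were Fabp4, at 6.31 ± 2.87 CPM on LF and 10.0 ± 7.85 CPM on HF, and Adrb3, at 15.8 ± 5.0002 and 12.1 ± 4.46 CPM (log2 fold change -0.40, edgeR adjusted p 0.599).

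Cyp2f2 (ENSMUSG00000052974, chromosome 7, 27119909 to 27133660, plus strand) encodes a cytochrome P450 that marks periportal hepatocytes. Its levels were 197, 202, 225 and 208 CPM on LF and 302, 396, 399 and 331 CPM on HF, a log2 fold change of 0.77 (SE 0.11, edgeR adjusted p 0.0404). The 4 LF labelled knockouts were also lower than each control on either diet, the lowest of which had 299.6 CPM. Akr1c19, an aldo-keto reductase gene, ran from 24.9 to 32.6 CPM on LF and from 50.2 to 73.5 CPM on HF (log2 fold change 1.09, SE 0.14, edgeR adjusted p 0.0183). Cyp2f2 overlaps Gm15883 and Akr1c19 overlaps Marcksl1-ps4.

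Gbp10 (ENSMUSG00000105096, chromosome 5, 105215699 to 105239533, minus strand) belongs to the guanylate-binding proteins, GTPases induced by interferon, and has close paralogs and an overlapping gene, Gm43302, with which it can share reads. It measured 6.31, 4.35, 4.67 and 4.92 CPM on LF and 17.3, 12.7, 11.6 and 13.9 CPM on HF, a log2 fold change of 1.44 (SE 0.17, edgeR adjusted p 0.0181). In controls the diets overlapped, with 7.65 to 13.0 CPM on LF and 8.49 to 17.0 CPM on HF. Map2k6, the kinase that activates p38, ran from 4.90 to 5.98 CPM on LF and from 9.43 to 15.7 CPM on HF (log2 fold change 1.21, SE 0.17, edgeR adjusted p 0.0345). Serpinb8, a serine protease inhibitor gene, ran from 8.76 to 11.2 CPM on LF and from 17.8 to 25.0 CPM on HF (1.10, SE 0.14, edgeR adjusted p 0.0183).

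The remaining 4 are not annotated as protein coding. C730036E19Rik, a long intergenic RNA (chromosome 1, 151138034 to 151142345, plus strand), ran from 26.8 to 33.0 CPM on LF and from 53.3 to 88.1 CPM on HF (log2 fold change 1.31, SE 0.16, edgeR adjusted p 0.0181). The processed pseudogene Gm8941 lies directly upstream on the same strand (chromosome 1, 151136507 to 151137780) and ran from 12.5 to 24.2 CPM on LF and from 37.2 to 65.9 CPM on HF (1.52). In both transcripts HF replicate 3 was the highest and HF replicate 4 the lowest of the HF libraries. Gm45819, a transcript still to be experimentally established that overlaps 1600010M07Rik, ran from 1.41 to 2.74 CPM on LF and from 4.79 to 6.49 CPM on HF (1.51). The pseudogene Gm44478 rested on 17 reads over the 4 LF libraries and 99 over the 4 HF libraries (2.43, SE 0.38, edgeR adjusted p 0.0456), and pseudogenes can share reads with their parent genes.

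**Figure D2:**
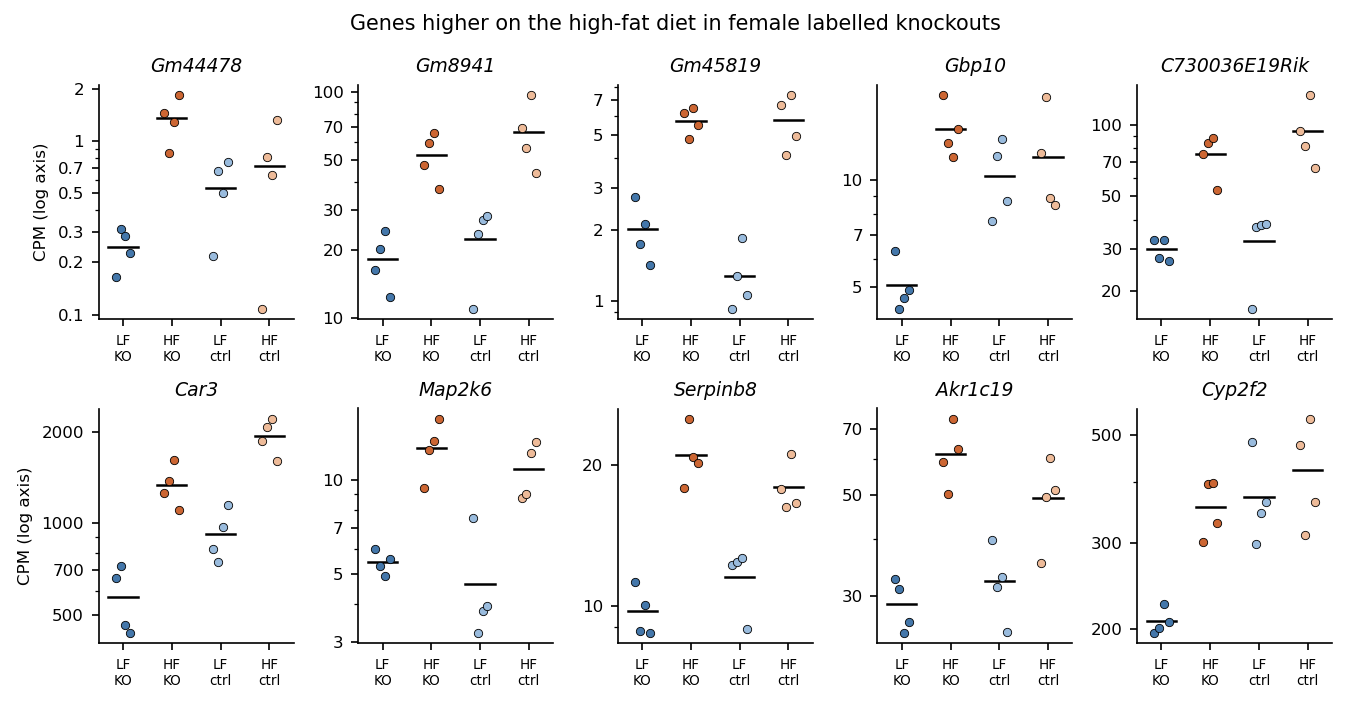
CPM on a log axis of the 10 genes that rose on the high-fat diet, for each of the 4 libraries of LF and HF labelled knockouts (KO) and of LF and HF controls (ctrl); points are libraries and bars are group means. In each panel the HF labelled knockouts lie above the LF labelled knockouts; for Cyp2f2 the LF labelled knockouts, at 197 to 225 CPM, lie below all controls.

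Pathway members were then read from 16 gene lists, of which 6 held a gene called by edgeR. The lists were chosen with earlier results of these data known, so a call within a list is not independent support. Calls are by edgeR unless the Wald test is named, and the latter called 1.79% of all genes as higher and 1.74% as lower. All genes tested had shares of 7.01% higher and 6.37% lower at an unadjusted p under 0.05. Every HF library was higher for 5.07% of them and lower for 3.56%. These shares stand beside the counts of each list below. The median log2 fold change over all genes tested was 0.00. Counts are over the members that passed the filter on low counts, which were all members except 4 of 20 PPARG-associated genes, 2 of 22 xenobiotic, 3 of 24 extracellular matrix, 2 of 19 bile acid, 2 of 18 stress response and 3 of 24 growth hormone and sex-biased genes. Crem, Foxo1, Elovl6, Acaca, Mid1ip1, Fdft1, Srebf2, G0s2, Fitm1, Per3, Tef, Dbp, Gbp6, Psmb9, Sds, Cyp2b13, Cyp7b1, Abcg5, Cyp2a4, Cish, Fgg, Atf5, Col5a2, Cd9, Cxcl10, Spp1 and Onecut1 overlap other annotated genes, whose reads cannot be told apart from theirs. Of 20 fasting-responsive genes, Lepr and Gadd45g fell, 11 were lower and 1 higher at an unadjusted p under 0.05, and in 5 every HF library was lower, with a list median of -0.63 (-0.53 in controls). The Wald test called 8 lower. The next members by p were Crem, a cyclic AMP responsive repressor (24.0 ± 5.96 CPM on LF and 13.7 ± 0.721 on HF, log2 fold change -0.82, edgeR adjusted p 0.0770), and Igfbp1, a secreted binding protein of insulin-like growth factors (99.3 ± 64.0 and 22.6 ± 13.6 CPM, -2.16, edgeR adjusted p 0.105). Pdk4, which blocks glucose oxidation, had -1.44 (adjusted p 0.110) and the steroid hydroxylase Cyp17a1 had -0.71 (adjusted p 0.126). LF replicate 1 was the lowest LF library for Crem and Igfbp1 too, at 17.7 and 41.8 CPM.

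In the list of 14 genes of glucose output and uptake, G6pc fell and the Wald test called G6pc and Pck1 lower. Pck1, the rate-limiting enzyme of gluconeogenesis, measured 2613, 2356, 2327 and 4145 CPM on LF and 953, 1321, 1313 and 1774 CPM on HF. The groups did not overlap, with a log2 fold change of -1.11 and an edgeR adjusted p of 0.0846. The ketohexokinase gene Khk had -0.33 (adjusted p 0.272) and Foxo1 had 0.23 (adjusted p 0.408). The list's median was -0.08, and 0.14 in controls.

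Of 18 lipogenesis genes, edgeR called 0 and the Wald test 3 lower and 1 higher. At an unadjusted p under 0.05, 7 were lower and 2 higher (6.37% and 7.01% of all genes), with a median of -0.29 (-0.26 in controls). The desaturase gene Scd1 measured 22681, 21036, 11642 and 13824 CPM on LF and 5072, 10389, 4899 and 7081 CPM on HF, without overlap (log2 fold change -1.35, edgeR adjusted p 0.0864). The elongase gene Elovl6 stood at 243 ± 57.7 and 109 ± 29.3 CPM (-1.17, adjusted p 0.0642) and the acetyl-CoA carboxylase gene Acaca at 238 ± 38.1 and 148 ± 29.6 CPM (-0.69, adjusted p 0.101). Mid1ip1, whose product activates acetyl-CoA carboxylase, was higher in every HF library (0.66, adjusted p 0.117). Of 23 cholesterol synthesis genes, edgeR called 0 and the Wald test 1 higher. At an unadjusted p under 0.05, 8 were higher and 0 lower, and 21 had a positive value, with a median of 0.35 (0.73 in controls). The difference between the lipogenesis and cholesterol lists was not tested. Msmo1, a sterol oxidase gene, stood at 83.1 ± 28.2 and 179 ± 46.4 CPM (1.09, adjusted p 0.117), and Fdft1 and Srebf2 had 0.60 and 0.30 (adjusted p 0.238 and 0.263).

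Of 25 PPARA targets, Acot1 fell, and 6 were lower and 1 higher at an unadjusted p under 0.05 (6.37% and 7.01% of all genes). The median was -0.12 (0.13 in controls). The Wald test called 4 lower. Angptl4, an inhibitor of lipoprotein lipase, measured 148, 189.7, 179.7 and 187 CPM on LF and 97.2, 122, 67.1 and 103 CPM on HF, without overlap (log2 fold change -0.87, edgeR adjusted p 0.0642). Cyp4a31, a fatty acid hydroxylase gene with close paralogs, had -1.39 (adjusted p 0.122) and the hormone gene Fgf21 had -0.93 (adjusted p 0.250). Of 16 PPARG-associated lipid genes tested, from a list of 20, Plin5 fell and 6 were lower and 1 higher at an unadjusted p under 0.05, with a median of -0.21. The Wald test called 3 lower. In controls the same 16 genes had a median of 0.33 and 2 called (0.696% of all genes), Plin4 (1.78) and Fitm1 (1.95). At an unadjusted interaction p under 0.05 stood 4 (3.71% of all genes), namely Plin4, Pnpla2, Cidec and Fitm2. All had a more negative diet effect in labelled knockouts, and the lowest edgeR adjusted p of the interaction was 0.927. The triglyceride lipase gene Pnpla2 stood at 111 ± 9.34 CPM on LF and 82.4 ± 5.15 on HF (-0.44, adjusted p 0.0855), the droplet coat gene Plin2 at 793 ± 91.1 and 469.6 ± 135 (-0.77, adjusted p 0.117), and the lipase inhibitor gene G0s2 at 153 ± 53.7 and 93.7 ± 26.9 (-0.72, adjusted p 0.272). Fitm1, a gene of lipid droplet formation, had 1.68 (adjusted p 0.205).

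**Figure D3:**
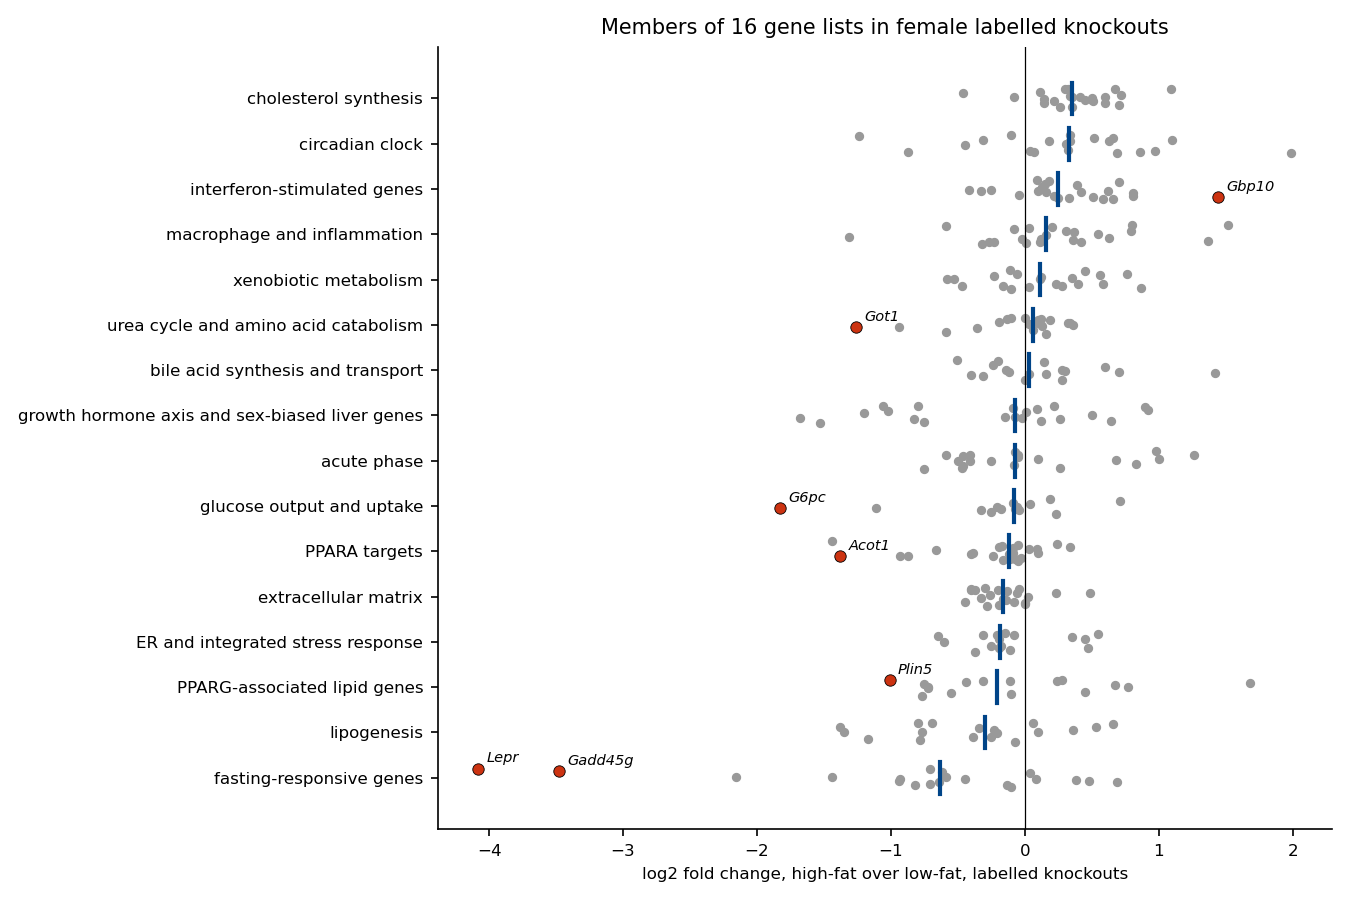
Log2 fold change on the high-fat diet in labelled knockouts (x axis) of each tested member of 16 gene lists (y axis, vertical jitter has no meaning); grey points are members, red points with names are called members, and blue bars are list medians. The medians run from -0.63 for fasting-responsive genes to 0.35 for cholesterol synthesis.

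The core clock genes were described as a further list, since the hepatic clock is known to follow the timing of food intake. Of 20 tested, 0 were called by edgeR and 9 higher and 1 lower by the DESeq2 Wald test. At an unadjusted p under 0.05, 12 were higher and 2 lower, and in 11 every HF library was higher (5.07% of all genes) and in 1, Arntl, every HF library was lower (3.56%). Per3, a period gene, measured 93.1, 80.3, 99.6 and 60.6 CPM on LF and 173, 131, 169 and 184 CPM on HF, with a log2 fold change of 0.97 and an edgeR adjusted p of 0.0514. Per2 measured 43.0, 48.9, 51.8 and 39.9 CPM on LF and 61.8, 65.3, 90.5 and 67.0 CPM on HF (0.63, adjusted p 0.0980). The clock output factors Dbp and Tef had 0.66 and 0.52 (adjusted p 0.101 and 0.0855). Arntl, the activator that pairs with Clock, stood at 2.86 ± 0.720 and 1.23 ± 0.633 CPM (-1.24, adjusted p 0.175). Per1, Cry1 and Nr1d1 had -0.10, 0.04 and 0.07, and the list's median was 0.33. The same 20 genes in controls had 5 called, against 0.696% of all genes, and a median of 0.23. The hour of sampling is not given in the labels, and its part in these values was not tested.

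**Figure D4:**
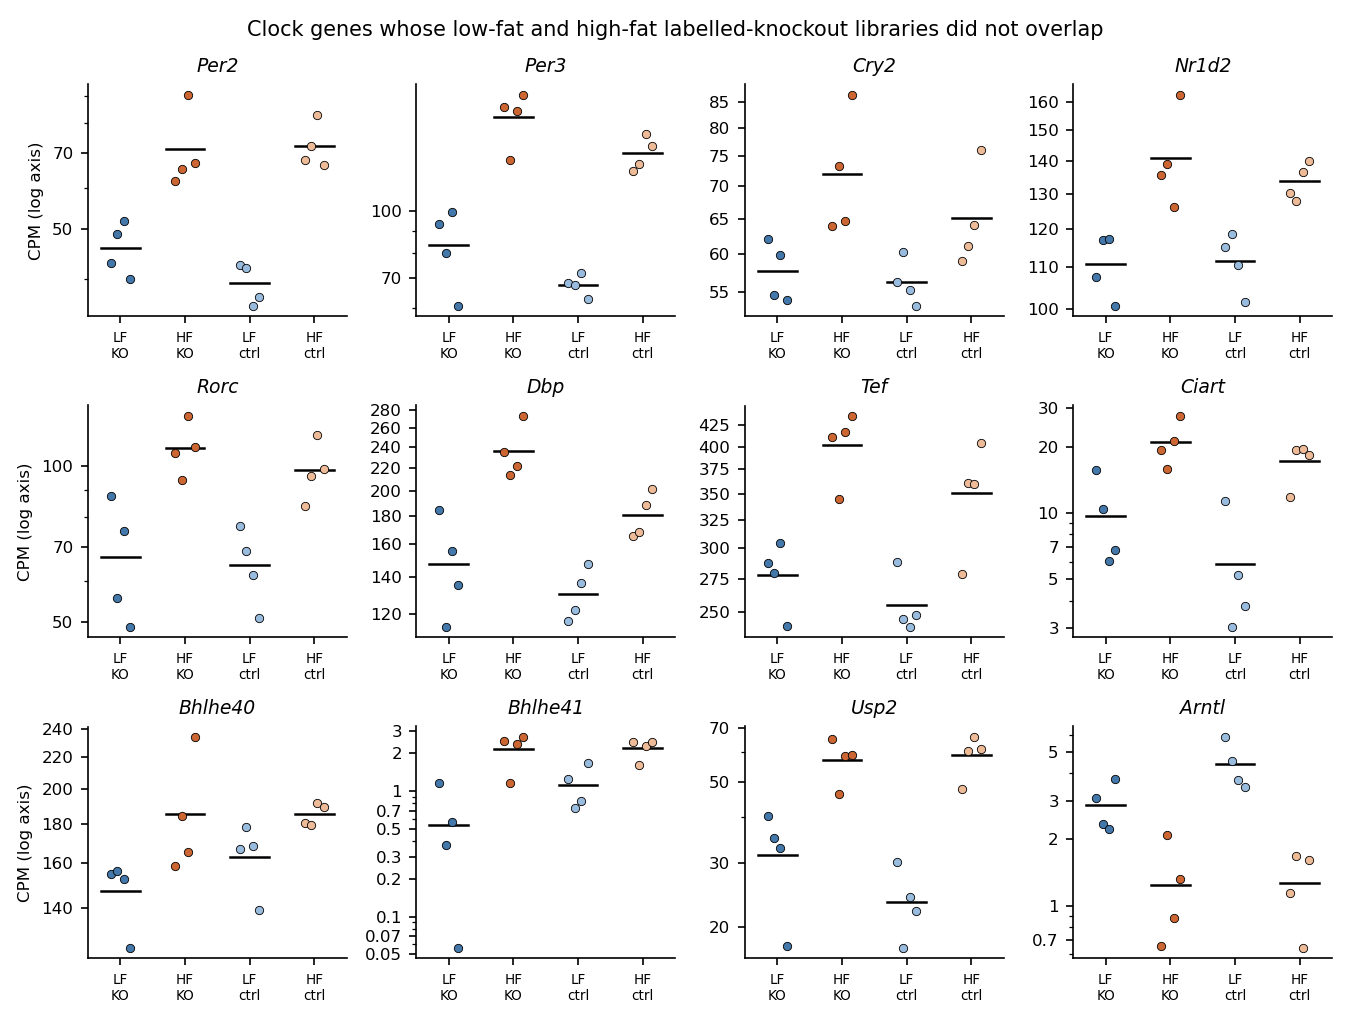
CPM on a log axis of the 12 clock genes whose LF and HF labelled knockouts (KO) did not overlap, with the LF and HF controls (ctrl) beside them; points are the 4 libraries per group and bars are group means. In 11 panels the HF labelled knockouts lie above the LF labelled knockouts, and in the panel of Arntl below, at 0.652 to 2.09 CPM against 2.22 to 3.79 CPM.

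Of 23 interferon-stimulated genes tested, Gbp10 rose, and 9 were higher and 1 lower at an unadjusted p under 0.05 (7.01% and 6.37% of all genes). The median was 0.25. The Wald test called 6 higher. Gbp3 measured 23.9, 21.9, 19.9 and 23.1 CPM on LF and 36.9, 26.6, 30.2 and 39.8 CPM on HF (log2 fold change 0.58, edgeR adjusted p 0.105). Gbp6, the antiviral Ifit1 and the immunoproteasome gene Psmb9 had 0.70, 0.81 and 0.62 (adjusted p 0.105, 0.159 and 0.146), each with every HF library above every LF library. In controls the same 23 genes had a median of -0.29, with 0 called. The test of the difference between the labelled genotypes is given with the other interactions.

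Of 19 genes of the urea cycle and amino acid catabolism, Got1 fell, and 4 were higher and 4 lower at an unadjusted p under 0.05 (13.4% of all genes in either direction), with a median of 0.06 (-0.22 in controls). The Wald test called 2 lower and 1 higher. Among these 19 the serine dehydratase gene Sds had -0.94 (adjusted p 0.131), the arginase gene Arg1 -0.36 (adjusted p 0.230), and the transcarbamylase gene Otc and the transaminase gene Gpt 0.34 and 0.36 (adjusted p 0.159 and 0.225). Of 20 xenobiotic genes tested, 7 were higher and 0 lower at that level, led by Cyp2a5 (1102 ± 240.3 and 1880.4 ± 342 CPM, 0.76, adjusted p 0.122), Cyp1a2 (0.58, adjusted p 0.151) and Cyp2b13 (0.87, adjusted p 0.159). Of 17 bile acid genes, 5 were higher and 1 lower. Cyp7a1, the rate-limiting enzyme of bile acid synthesis, measured 178, 324, 138 and 53.8 CPM on LF and 741, 250.96, 452 and 415 CPM on HF, which overlapped (1.42, adjusted p 0.217), and Cyp7b1, Baat and Abcg5 had 0.70, 0.28 and -0.51. In both lists edgeR called 0, whereas the Wald test called 3 xenobiotic genes and 1 bile acid gene higher. Their medians were 0.11 and 0.03, and 0.21 and 0.06 in controls.

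Of 21 genes of the growth hormone axis and sex-biased expression, 5 were lower and 1 higher at an unadjusted p under 0.05 (6.37% and 7.01% of all genes). EdgeR called 0 and the Wald test 2 lower, with a median of -0.07 (-0.29 in controls). Cyp2a4 stood at 1559.6 ± 334 and 884 ± 154 CPM (log2 fold change -0.83, edgeR adjusted p 0.0846), and the suppressors of cytokine signalling Socs2, Socs3 and Cish had -1.53, -0.75 and -1.02 (adjusted p 0.196, 0.196 and 0.205). LF replicate 1 stood at 15.8 CPM for Socs2 and 16.6 CPM for Cish, against at least 80.5 and 46.7 CPM in the other LF libraries. Of 20 acute phase genes 5 were lower and 1 higher, among them Apcs (-0.75), Fgg (-0.47) and Fgb (-0.46) and the metallothionein gene Mt1 (1.26). EdgeR called 0 of them and the Wald test 4 lower, with a median of -0.07 (-0.18 in controls). The summed level of this list was 29465 CPM in HF replicate 3. It ran from 20774 to 23759 CPM in the other HF libraries and from 24201 to 39836 CPM on LF. Of 16 genes of the ER and integrated stress response 3 were higher and 3 lower, with 0 called by edgeR, 1 called lower by the Wald test and a median of -0.18 (-0.03 in controls). The lowest p there was that of Creld2 (-0.65, adjusted p 0.105), followed by Vldlr (0.45), the chaperone gene Hspa5 (-0.37) and Atf5 (-0.31).

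Extracellular matrix and macrophage genes, which mark fibrosis and inflammation of the liver, had 0 of 21 and 0 of 23 called by edgeR, and the Wald test called 0 and 1 lower. At an unadjusted p under 0.05 stood 0 of the matrix genes and 1 of the macrophage genes, Cd9, a membrane protein gene, at 29.6 ± 6.36 CPM on LF and 12.04 ± 4.16 on HF (log2 fold change -1.31, edgeR adjusted p 0.0642). The matrix genes of lowest p, Dcn, Col5a2, Col6a1 and Lum, had -0.37, 0.49, -0.30 and -0.45, and the list's median was -0.16 (-0.08 in controls). The macrophage list's median of 0.16 has HF replicate 3 in it: its summed level was 805 CPM there, against 306 to 401 CPM in the other 3 HF libraries and 330 to 554 CPM on LF. Tnf, Cxcl10 and Spp1 had 1.52, 0.79 and -0.59, none called by either test.

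Beyond the edgeR calls, the genes with the largest fold changes among those called by the DESeq2 Wald test alone, with non-overlapping groups, were read as values. On the higher side were Gpc1 (2.53), Tmem28 (2.50), Sema5b (2.34), Dsg1c (2.15), Bhlhe41 (1.99) and Spsb4 (1.90). On the lower side were Adcy1 (-4.49), Plekhd1 (-3.91), Smad9 (-3.64), Fabp5 (-2.90), Slc13a2 (-2.13) and Ocstamp (-1.78). Gpc1, Sema5b, Bhlhe41, Spsb4 and Slc13a2 overlap other annotated genes. Smad9, a mediator of bone morphogenetic protein signals, measured 2.25, 6.96, 3.70 and 11.0 CPM on LF and 0.652, 0.369, 0.0927 and 0.856 CPM on HF (Wald adjusted p 2.85e-07, edgeR adjusted p 0.0552). Fabp5, a fatty acid binding protein gene, measured 123, 82.7, 46.4 and 271 CPM on LF and 6.07, 40.1, 8.90 and 16.7 CPM on HF (Wald adjusted p 0.0104, edgeR adjusted p 0.102). Dsg1c, a desmosomal cadherin gene, owed its mean of 36.1 ± 29.0 CPM on HF to replicate 3 at 79.4 CPM, the other 3 lying between 17.8 and 24.5 CPM against 7.06 to 9.38 CPM on LF.

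In the control mice, which share no library with the labelled knockouts, the same diets gave 99 calls in 14216 genes (0.696%). All 22 genes called in labelled knockouts had the same sign in controls, as had 67.2% of the 13982 genes tested in both. In controls 17 of the 22 stood at an unadjusted p under 0.05, against 16.3% of all genes, and 5 were called there too, namely C730036E19Rik, Zfpm1, Lepr, Car3 and Gm45819. The size in controls was smaller for 18 of the 22, with a median over the 22 of 60.8% of the labelled-knockout log2 value, the 22 having been picked for passing the test in labelled knockouts. Csad had -1.32 in labelled knockouts and -0.08 (SE 0.38) in controls, where HF libraries stood at 204, 190.5, 82.7 and 69.3 CPM. Gbp10 had 1.44 and 0.17 (SE 0.25), Cyp2f2 0.77 and 0.17 (SE 0.20), and G6pc -1.83 and -0.88 (SE 0.21). Lepr had -4.08 and -2.77 (SE 0.35), Zfpm1 -0.86 and -0.82 (SE 0.10), and Car3 1.22 and 1.07 (SE 0.16).

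Whether the diet effect differed between the labelled genotypes was put to an interaction test on the 16 LF and HF libraries. Of 14938 genes, edgeR called 0 (0.0%), and 554 had an unadjusted p under 0.05 (3.71%). The DESeq2 Wald test called 2 genes (0.0134%), Plin4 with a more negative and A1bg with a more positive diet effect in labelled knockouts. The lowest edgeR adjusted p was 0.927. Of the 22 genes, 8 stood at an unadjusted interaction p under 0.05 (Csad, Ctcflos, Gbp10, Serpinb8, Gadd45g, Cyp2f2, G6pc and Gm44478). The 22 were picked for their diet effect in 8 of these 16 libraries. Selection therefore raises this count over the 3.71% of all genes, and it is not further support for a difference. For Csad the interaction was -1.23 (SE 0.44) and for Gbp10 1.28 (SE 0.32), each with an adjusted p of 0.999. So the calls in labelled knockouts that were missed in controls are not shown to be particular to labelled knockouts. Plin4, a droplet coat gene, measured 15.5, 10.3, 12.6 and 16.5 CPM in LF labelled knockouts and 6.02, 12.5, 10.4 and 3.75 CPM in those on HF. Controls had 18.2, 17.5, 26.2 and 19.1 CPM on LF and 107, 68.5, 73.2 and 31.0 CPM on HF, without overlap. Its interaction was -2.53 (edgeR unadjusted p 7.42e-05, adjusted p 0.927). The droplet fusion gene Cidec had -0.72 in labelled knockouts, 1.66 in controls and an interaction of -2.37 (edgeR adjusted p 0.999). Of the 23 interferon-stimulated genes, 12 stood at an unadjusted interaction p under 0.05, led by Gbp3 at 0.84, all 12 with a more positive diet effect in labelled knockouts and none with an adjusted p below 0.999.

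**Figure D5:**
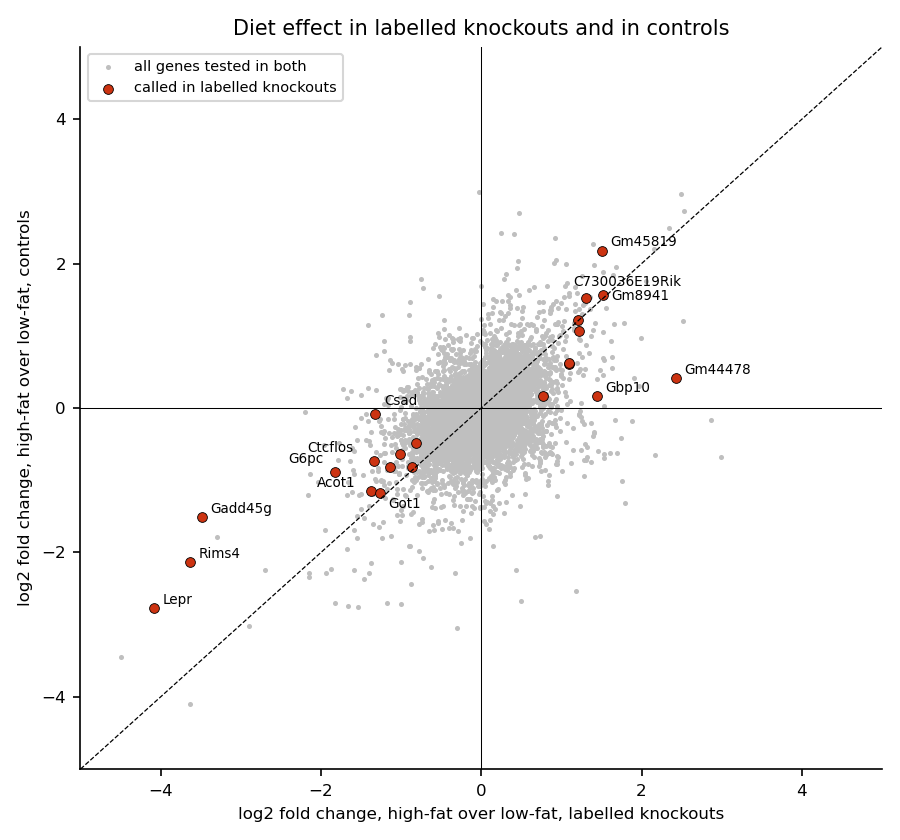
Log2 fold change on the high-fat diet in labelled knockouts (x axis) against controls (y axis) for the 13982 genes tested in both (grey), with the 22 genes called in labelled knockouts in red; the dashed line marks equal values. All 22 red points lie in the lower left or upper right quadrant, and Csad, Gbp10 and Gm44478 lie near 0 on the y axis.

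Markers of the cell types of whole liver were read beside these results. The 8 hepatocyte markers found summed to 100550 to 120088 CPM on LF and 101614 to 122466 CPM on HF. Their median log2 fold change was -0.17 (-0.14 in controls), with 0 called by edgeR and 1 called lower by the Wald test. Every HF library was lower for Ttr and Fgb, as for 3.56% of all genes. All 8 sinusoidal endothelial markers tested were lower on HF in value, with 0 called by edgeR or the Wald test, a median of -0.48 and sums of 268 to 537 CPM on LF and 205 to 349 CPM on HF. All 9 stellate cell markers were lower too (median -0.18, sums 395 to 742 and 428 to 586 CPM), as were all 7 cholangiocyte markers tested (median -0.72, sums 91.1 to 179 and 69.9 to 94.0 CPM), with 0 called by edgeR. The Wald test called 0 of the stellate and 1 of the cholangiocyte markers lower, Onecut1, also a hepatocyte transcription factor, at 32.0 ± 18.3 and 9.37 ± 3.65 CPM. The 5 blood markers were higher on HF in value (median 0.57, sums 72.0 to 239 and 75.5 to 380.2 CPM), with 0 called by edgeR and 1 by the Wald test. In controls the medians were -0.3 for endothelial, -0.19 for stellate, -0.2 for cholangiocyte and 0.79 for blood markers. There all 5 blood markers stood at an unadjusted edgeR p under 0.05, against 16.3% of all genes. T and B cell markers summed to 8.38 to 15.6 CPM on LF and 7.13 to 18.1 CPM on HF. For the adipocyte list, Lep, Plin1 and Tshr are not among the listed genes and Adipoq was at 0; for the exocrine pancreas list, 8 genes are not among those listed, Cela3b was at 0 and the sums ran to 1.11 CPM at most. Skeletal muscle markers summed to at most 2.599 CPM, with Myh1 and Mb at 0. The part of these cell types in the genes that rose or fell was not tested.

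The Kupffer and neutrophil markers turned on a single library. Kupffer markers summed to 959 CPM in HF replicate 3, against 402 to 499 CPM in the other 3 HF libraries and 406 to 685 CPM on LF, and the neutrophil markers to 89.6 CPM, against 1.84 to 3.07 CPM and 1.74 to 5.08 CPM. Marco, a scavenger receptor gene of Kupffer cells, measured 138 CPM in that library and 2.17 to 23.3 CPM in the other 3 HF libraries, and Itgax 38.5 CPM against 1.251 to 4.24 CPM. With replicate 3 the log2 fold changes of Marco, S100a8 and S100a9 were 1.97, 2.99 and 2.86, and without it they were -0.17, -0.81 and -0.71. Without this library 11 genes were called, of which 8 were among the 22.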

How the data were processed

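Whole-liver RNA-seq libraries, not strand specific, were read from tables of raw counts per gene deposited by the authors. The tables also hold the authors' deposited FPKM (counts scaled by gene length and depth) and, for their own comparisons, the authors' deposited log2 fold changes and p-values. STAR 2.6.1, HTSeq 0.6.1 and the genome GRCm38 (mm10) are named in the submitters' processing notes, without roles.

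Counts were tested with edgeR 4.0.16 (R 4.3.3): default filter on low counts, TMM scaling and the quasi-likelihood test, 4 against 4 libraries, with Benjamini-Hochberg adjustment over all genes tested. The interaction used 16 libraries. DESeq2 1.42.0 (Wald test), limma 3.58.1, other filters, scalings and designs, and leaving out each library, were alternatives; the edgeR steps were tested on simulated data. A call is an adjusted p under 0.05. The edgeR calls, Pparg, the members of lowest p in each list, any gene called in the interaction, and the 6 genes per direction of largest fold among those of at least 1 CPM called by DESeq2 alone were named. A few others were chosen after their values were seen (Plin4, Cidec, Fitm2, Per1, Cry1, Nr1d1, Itgax). The members and lists were chosen with earlier results of these data known. Some list members covered by this rule are not reported here. Overlaps were read from GENCODE M21 and promoters from RefSeq (GRCm38.p6); motifs were chosen after results were seen. Libraries of 15900564 to 21230433 reads on genes leave low genes such as Rims4, with 17 reads over 4 libraries, imprecise.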

Additional observations from a re-analysis of the deposited data

Results flagged for a closer look

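Among 128 genes, 256 groups of 4 libraries were checked for a library whose gap to the nearest other was large beside the range of its group. The check marked 16 values. Chance marks about 1 in 20 groups, and 16 of 256 is close to that share, so single marks may be chance. Of these, 6 lay in HF labelled-knockout replicate 3. There Marco was 138 CPM (2.17 to 23.3 in the other 3 libraries), S100a8 26.0 (0.395 to 0.553), S100a9 39.98 (0.799 to 0.988), Tnf 2.78 (0.263 to 0.652), Dsg1c 79.4 (17.8 to 24.5) and Ecm1, a secreted matrix protein gene, 159 (207 to 215).

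In LF replicate 4, Pck1 was 4145 CPM (2327 to 2613 in the other 3), Adcy1 21.8 (4.10 to 4.94) and S100a8 1.47 (0.658 to 0.684). In LF replicate 3, Lum was 3.93 CPM (9.76 to 10.1), Ecm1 155 (273 to 295) and Creld2 29.98 (19.5 to 20.7). Creld2 also stood at 16.7 CPM in HF replicate 2 (13.7 to 14.0), as did Folr2, a macrophage folate receptor gene, at 1.91 (2.64 to 2.70). Cish was 16.6 CPM in LF replicate 1 (46.7 to 51.6), and Apoa1, the main apolipoprotein of high-density lipoprotein, 6714 CPM in HF replicate 1 (9280 to 9645).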

How the results depend on the processing

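In labelled knockouts the count of 22 calls became 91 in one fit of the 4 LF and HF female groups, 114 with all 6 female groups, 501 with the DESeq2 Wald test and 106 without a filter on low counts. It ran from 0 to 124 with each library left out in turn. Other settings gave 15 (robust prior), 19 (calls of 1 or more in absolute log2 fold change), 20 (10 counts in every library), 22 (DESeq2 size factors), 30 (limma voom) and 31 (a newer dispersion estimate, chosen after seeing the data). With the replicate number as a block it was 9, of which 7 were among the 22. The numbers do not pair the samples: deviations of same-numbered libraries correlated at -0.02, 0.03, -0.10 and -0.21 across genes.

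In controls the count of 99 became 180, 313, 648 and 172 under the same first 4 settings, 254 with limma voom, 39 under that size limit, and 10 to 112 with each library left out. It fell to 65 or fewer without LF control 2, 3 or 4 or HF control 2, 3 or 4. The interaction gave 0 calls in every alternative run except the DESeq2 Wald test, with 2. Pparg had 0.90 and passed the threshold under that test (adjusted p 0.0271), and had 0.69 to 1.17 with each library left out. Of 2522 values of named genes 3 changed sign, all without HF replicate 3: Marco (-0.17), S100a8 (-0.81) and S100a9 (-0.71). With each library left out they ran up to 2.34, 3.38 and 3.34. The cause of these shifts was not tested. Low genes are limited by depth.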

Other observations

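LF labelled-knockout replicate 1 was the lowest LF library for some genes of different lists, gathered here for that reason. For others, among them Scd1, Plin5 and Pparg, this replicate was the highest LF library. LF replicate 1 measured 29.2 CPM of Lepr against 108 to 261 CPM in LF replicates 2 to 4, and 16.5 CPM of Gadd45g against 39.8 to 92.4 CPM. Socs2 stood at 15.8 CPM against 80.5 to 101 CPM, Onecut1 at 9.38 against 31.2 to 54.2 CPM, and Igfbp1 at 41.8 against 61.5 to 186 CPM. Its levels of Socs2 and Onecut1 lay within the range of the 4 HF libraries, from 13.2 to 36.9 CPM and from 5.84 to 14.1 CPM. Without this library the diet comparison called 124 genes, all 22 among them. The share of all genes that were lowest in it was not computed.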
